A study of Homo sapiens with 7 samples.

Results

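One library of HUES66 cells, labelled G5, was compared with the single control library of the same experiment, 2 of the 7 libraries sequenced. HUES66 is an established human embryonic stem cell line. Both cultures carry the label piggyBac, were treated with doxycycline at 1 µg/ml and share the 24 h time point. The control has the genotype label WT, and G5 has the label of an RBFOX2 isoform knockdown with the RBFOX2 id 178149. The study used Cas13d, a nuclease that an RNA guide directs to an RNA target. The labels state neither the guide sequence nor the isoform that this id denotes, and they do not say whether a culture was 1 clone or whether the control carried a guide. The other 5 G libraries (G3, G11, G12, G13 and G14) have the same treatment and time and carry other RBFOX2 ids. Polyadenylated RNA was read as full-length cDNA on a PacBio long-read instrument, and a level is given in TPM, here reads scaled to library depth with no length term. The control held 16801843 reads and G5 25452450. Of 14294 genes in the deposited table, the 7878 with a mean of at least 5 TPM over the 7 libraries were compared. Each group had 1 library, so no difference below has a replicate check or a p-value, and every interval (exact Clopper-Pearson for a ratio of levels, Wilson for a share) is a 95% interval that covers counting error only, with no molecular identifiers used.

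RBFOX2 is an RNA-binding protein that recognises the motif UGCAUG in introns and promotes or represses the neighbouring exon depending on which side it binds. Its gene is transcribed from several promoters, and the first exons they supply encode different protein starts ahead of a shared RNA-recognition domain. In embryonic stem cells RBFOX2 is known for controlling the splicing of cytoskeletal, signalling and splicing-factor transcripts.

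The RBFOX2 gene spans 35738736 to 36028425 of chromosome 22 in GRCh38 and is read from the minus strand (GENCODE 29 annotation). Its isoforms were grouped by their 5′ end. A distal first exon lies at 36028240 to 36028425 (186 nt) and is followed in ENST00000438146.6 by an exon of 51 nt at 35938847 to 35938897. A proximal first exon lies at 35840192 to 35840407 (216 nt). The distal and proximal forms then share the exon at 35809780 to 35810004 (225 nt). The coding starts are shown because they are what tells the lowered isoforms from the others. They come from the GENCODE 29 transcripts ENST00000438146.6 (distal) and ENST00000449924.6 (proximal). In the distal coding start the capitals mark the 51-nt exon, and in the junctions they mark the last 15 bases before the shared exon.

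distal coding start: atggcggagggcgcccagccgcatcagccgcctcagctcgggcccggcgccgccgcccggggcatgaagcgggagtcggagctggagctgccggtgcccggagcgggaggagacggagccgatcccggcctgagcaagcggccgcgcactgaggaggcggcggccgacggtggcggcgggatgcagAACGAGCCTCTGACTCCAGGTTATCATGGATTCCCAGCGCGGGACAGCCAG
proximal coding start: atggagaaaaagaaaatggtaactcag
distal junction: GCGCGGGACAGCCAGggtaaccaggagccg
proximal junction: AAAATGGTAACTCAGggtaaccaggagccg

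The distal form thus places 237 coding bases ahead of the shared exon and the proximal form 27. The distal first exon had a GC content of 78.0%, the 51-nt exon 58.8% and the proximal first exon 43.5%.

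Summed over the class, RBFOX2 isoforms that start at the distal first exon were lower in G5 than in any other library. The sum of those that start at the proximal first exon was slightly higher than in the control. The 29 distal isoforms together held 423 reads in the control and 88 in G5, where the control's rate would have given 641. Their level was 25.2 TPM in the control, 3.46 TPM in G5, 27.6 TPM in G3, 12.7 TPM in G11, 14.8 TPM in G12, 7.19 TPM in G13 and 23.6 TPM in G14. G5 was the lowest of the 7, with G13 next. The distal level of G5 was 13.7% of the control (10.8 to 17.3). The corresponding percentages, all against the same control, were 28.6% in G13 (23.7 to 34.3), 50.5% in G11 (43.2 to 59.1) and 58.7% in G12 (51.0 to 67.4). They were 93.7% in G14 (82.1 to 107) and 109% in G3 (96.0 to 125).

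The distal isoforms differed from one another in 3′ end, in exact start and in whether the table gave them a reference ID, and they were low in G5 across all of these. Isoforms without a reference ID carry hashed IDs and are numbered here by mean share of RBFOX2 reads. Hashed isoform 3 (35743911 to 36028777) had 156 reads in the control and 25 in G5, or 10.6% of the control (6.64 to 16.2). Hashed isoform 4 (35743599 to 36028799) had 85 and 20 reads, or 15.5% (9.04 to 25.5). ENST00000695854.1 (35743913 to 36028506) had 85 and 26 reads, or 20.2% (12.5 to 31.6). ENST00000438146.7 (35743945 to 36028531) had 38 and 9 reads, or 15.6% (6.65 to 32.9). Hashed isoform 9 (35744105 to 36028506) had 10 reads in the control and 0 in G5, which allows up to 29.4% of the control. The intervals of these 5 isoforms, the only distal ones with at least 10 reads in either library, overlapped one another.

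In the other G libraries the same isoforms diverged. Hashed isoform 3 had 195, 161, 75, 15 and 259 reads in G3, G11, G12, G13 and G14. Hashed isoform 4 had 97, 7, 165, 8 and 177 reads in the same order. ENST00000695854.1 had 93, 75, 48, 81 and 17 reads, and ENST00000438146.7 had 49, 2, 69, 44 and 9. Each of G11, G12, G13 and G14 thus had some of these 4 isoforms at 70.2% of the control or more and the rest at 35.6% or less, whereas in G5 all 4 lay between 10.6% and 20.2%. G5 was not the lowest library for any of the 4 taken singly. Isoforms starting over 200 bases upstream of the annotated distal start held 255 reads in the control and 49 in G5 (12.7%, 9.15 to 17.3). Those starting nearer held 168 and 39 (15.3%, 10.5 to 21.8). With a reference ID the distal level was 18.8% (12.5 to 27.5), and with a hashed ID it was 11.7% (8.54 to 15.7). In 3 of these subgroups another library was lower than G5. G13 was at 7.80% for the starts over 200 bases upstream and at 9.58% for hashed IDs, and G14 at 17.0% for reference IDs.

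A further 8 isoforms begin at or next to the 51-nt exon, which the proximal isoforms lack. They held 21 reads in the control and 1 in G5, or 3.14% of the control (0.0760 to 19.5). The count was 8 in G3 and 5 in G13, and 13 in G11, 28 in G12 and 19 in G14. The single read of G5 was the lowest count of the 7, on the small totals of this class.

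Isoforms of the proximal first exon, which encodes the short protein start, held 1306 reads in the control and 2283 in G5. Their level was 77.7 TPM in the control, 89.7 TPM in G5, 12.6 TPM in G3, 68.2 TPM in G11, 71.4 TPM in G12, 47.2 TPM in G13 and 80.3 TPM in G14. G5 was the highest of the 7, at 115% of the control (108 to 124). 

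The 4 most abundant proximal isoforms were all above the control in G5. ENST00000416721.6 had 472 reads in the control and 887 in G5 (124%, 111 to 139), and hashed isoform 1 had 260 and 475 (121%, 103 to 141). ENST00000449924.6 had 235 and 496 reads (139%, 119 to 163), and hashed isoform 2 had 120 and 271 (149%, 120 to 186). Taken singly, none of the 4 was highest in G5, which ranked 5 of 7 from the lowest for each. ENST00000416721.6 was higher in G11 (137%) and G14 (161%), and hashed isoform 1 in G11 (142%) and G13 (134%). ENST00000449924.6 was higher in G12 (178%) and G14 (176%), and hashed isoform 2 in G12 (192%) and G13 (179%). Among the 12 proximal isoforms with at least 10 reads in either library, these 4 had an interval above the control, 5 an interval below it and 3 an interval that included it. The 5 low ones were minor: hashed isoform 5 (46 and 22 reads, 31.6%), ENST00000405409.6 (27 and 16, 39.1%), ENST00000414461.6 (22 and 12, 36.0%), hashed isoform 15 (10 and 2, 13.2%) and hashed isoform 18 (10 and 3, 19.8%). Of these 5, all but hashed isoform 15 were also below the control in the other 5 G libraries, and hashed isoform 15 was below it in 4 of the 5.

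**Figure D1:**
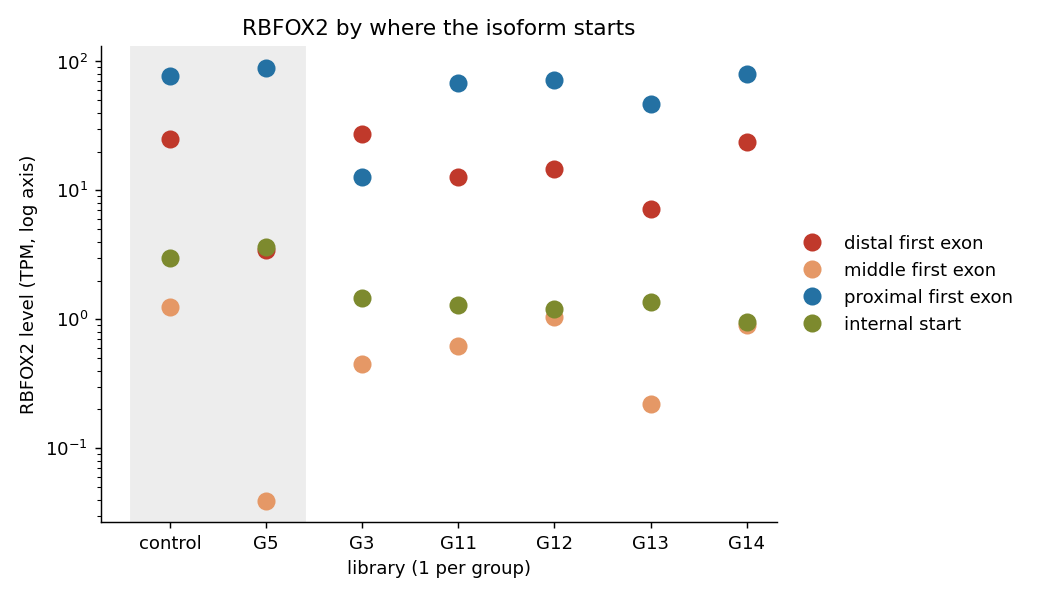
RBFOX2 level in TPM (log axis) in each of the 7 libraries, by the exon at which the isoform starts, with the control and G5 shaded. The distal point drops from 25.2 TPM in the control to 3.46 TPM in G5, the lowest of the 7, while the proximal point is the highest of the 7 at 89.7 TPM.

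Every isoform in the table has at least 1 read in the control, so counts of lowered isoforms are partly set by which isoforms are listed. All 29 distal isoforms were lower in G5 and 20 had no G5 read, but 48 of the 60 proximal isoforms were lower too. The 31 proximal isoforms known from a single control read held 10 reads in G5, where the control's rate would have given 47.0. These 31 held 1.72% of RBFOX2 reads in the control and 0.406% in G5. A filter to isoforms of at least 1 TPM on average also drops isoforms with more control reads. Under it the distal level of G5 was 14.5% of the control, beside 13.7% with all isoforms. The proximal level was 125%, beside 115% (108 to 124), so the minor isoforms changed the size of that difference but not its direction.

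Isoforms that start inside the gene at the shared 225-nt exon, among them ENST00000397303.6, held 50 reads in the control and 92 in G5. Their level was 2.98 TPM in the control and 3.61 TPM in G5, and between 0.955 TPM and 1.46 TPM in the other 5 G libraries. G5 was at 121% of the control, with an interval of 85.2 to 175 that includes equality.

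**Figure D2:**
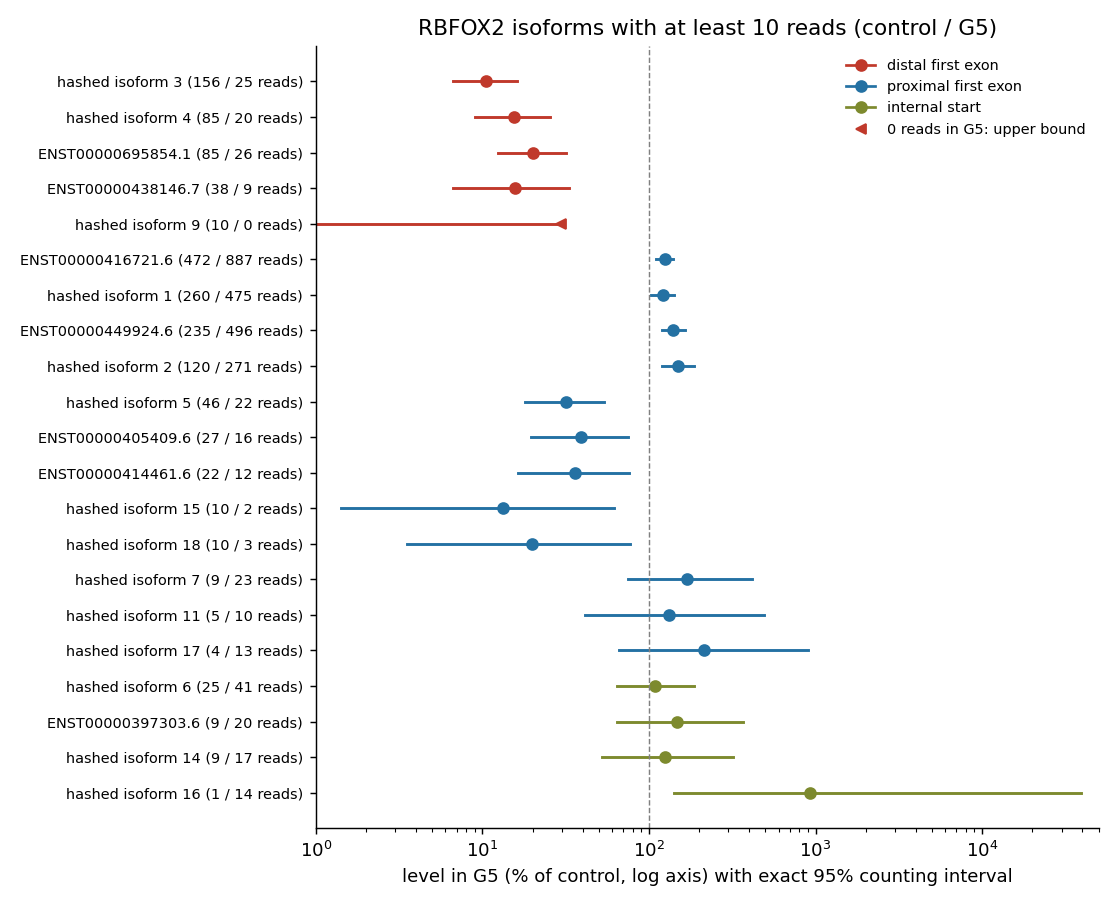
Level of each RBFOX2 isoform in G5 as a percentage of the control (log axis), with the exact 95% counting interval, for the 21 isoforms with at least 10 reads in either library; read numbers are given as control / G5 and the dashed line marks equality. All 5 distal isoforms lie below the line, the 4 largest proximal isoforms lie above it, and 5 minor proximal isoforms lie below it.

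The RBFOX2 total was 107 TPM in the control and 96.8 TPM in G5, with 42.1 TPM in G3, 82.9 TPM in G11, 88.5 TPM in G12, 55.9 TPM in G13 and 106 TPM in G14. G5 ranked below the control and G14 and above the others, at 90.3% of the control (84.9 to 96.0). The direction of this small difference was not stable. Isoforms with a mean of at least 1 TPM gave 98.4%, those with a reference ID 109%, and the median of the other 5 G libraries as reference 117%.

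The split between the first exons differed more than the total did. Among reads that began at 1 of the first exons, 75.5% were proximal in the control (73.5 to 77.5) and 96.3% in G5 (95.4 to 97.0). The control had 3.09 proximal reads per distal read and G5 had 25.9. The ratio was 3.41 in G14, 6.55 in G13, 4.84 in G12, 5.36 in G11 and 0.457 in G3, all below G5.

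To place this shift among other genes, start sites of each gene were joined within 200 bases and their shares compared over 5743 genes with at least 200 reads in all 7 libraries, a scan chosen after the values were seen. Over 5 percentage points beyond the other 6 libraries lay 5 of 14403 start sites in G5 (0.0347%). The proximal RBFOX2 start was 1 of these and had the widest gap of all, 8.34 points. It held 92.7% of RBFOX2 reads in G5 against 72.5% in the control and at most 84.3% in any other library. By the size of the difference between G5 and the control alone, 20.2 points, this start ranked 5 and not 1. The distal RBFOX2 starts did not stand out in this scan. The start at 36028433 to 36028531 held 9.32% in the control, 1.58% in G5 and 2.39% in G14, a gap of -0.81 points (rank 238). The start at 36028777 to 36028824 held 14.2% in the control, 1.99% in G5 and 2.12% in G13, a gap of -0.13 points (rank 1310). The position of this one gene was known before the scan, and the other 4 of the 5 sites are given with the closing observations. The same scan over single isoforms gave 25 of 286843 in G5 (0.00872%).

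The 3′ ends of the proximal isoforms were compared as well. Those that reach the most distal 3′ end, ENST00000449924.6 and 1 other, held 18.1% of proximal reads in the control and 21.7% in G5. The same share was 30.7% in G14, 7.16% in G13, 34.8% in G12, 2.60% in G11 and 17.8% in G3, so G5 lay near the control and G3 on this measure.

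The levels of genes beside RBFOX2 were within 2-fold of the control. The 8 compared genes within 500 kb ranged from a log2 ratio (G5 over control) of -0.92 for TXN2, a mitochondrial thioredoxin, to 0.48 for MCM5, a subunit of the replicative helicase. MYH9, the non-muscle myosin gene upstream of RBFOX2, was at 25.7 TPM in the control and 25.9 TPM in G5. The paralogues RBFOX1 and RBFOX3 stayed near 0, at 0.48 and 0.24 TPM in the control and 0.28 and 0.04 TPM in G5.

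Cell identity was checked with marker genes. Of 16 pluripotency genes 15 had listed isoforms, all but SOX2. Of the 16, 14 were compared, with a median log2 ratio of 0.13, beside 0.14 over all genes, and 1 was at least 2-fold higher. POU5F1, the core pluripotency factor, was at 916 TPM in the control and 557 TPM in G5, DPPA4 at 745 and 1002 TPM, and LIN28A, an inhibitor of let-7 maturation, at 170 and 182 TPM. NANOG was at 10.1 and 5.57 TPM, and L1TD1, an RNA-binding protein of pluripotent cells, was the 2-fold higher gene at 18.2 and 40.5 TPM. All 5 other G libraries were below the control for POU5F1 and NANOG and above it for L1TD1. No marker of mesoderm, endoderm, or trophoblast and amnion reached the level of comparison, and the summed level of each of these lists was between 1.69 and 3.50 TPM in both libraries. Isoforms were listed for 5 of 8 mesoderm, 4 of 7 endoderm and 3 of 7 trophoblast and amnion markers. They were listed for 4 of 8 ectoderm and 4 of 7 fibroblast markers. TBXT of mesoderm and FOXA2 of endoderm had 1 read each in the control and 0 in G5. Because a listed isoform always has at least 1 control read, a marker read only in G5 would be missing here. The low sums and absent markers therefore cannot show that G5 lacked such a marker. Of the ectoderm list 2 genes were compared, OTX2 (log2 ratio 0.29) and TUBB3 (-0.17), with a summed level of 193 TPM in the control and 209 TPM in G5. Of the fibroblast list 3 were compared, COL1A2 (0.22), COL1A1 (0.02) and THY1 (-0.02), with a summed level of 946 and 937 TPM. Nearly all of this sum was THY1, at 918 and 907 TPM. COL1A1 was at 16.4 and 16.7 TPM, and COL1A2 at 11.3 and 13.3 TPM. In bulk RNA, fewer cells of a type and less RNA per cell cannot be told apart.

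Across the transcriptome, G5 had 799 genes at least 2-fold below the control (10.1%) and 42 at least 2-fold above it (0.533%). The ratio was taken on log2(TPM + 0.5), which understates differences of weakly expressed genes. The median log2 ratio was 0.14, with the 25th percentile at -0.28 and the 75th at 0.35. Against the median of the other 5 G libraries in place of the control, 2 of the 799 were 2-fold lower in G5 and none of the 42 was 2-fold higher.

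The lower genes had short transcripts. Their median length was 1055 nt, against 2604 nt over all genes and 3923 nt among the 42 higher genes. In the shortest of 5 equal length bins (207 to 1615 nt) the median log2 ratio was -0.84 and 650 of 1548 were 2-fold lower (42.0%). In the next bin (1616 to 2238 nt) it was 0.13 with 53 lower, and in the longest 0.22 with 25 lower. By GC content the median ran from 0.25 in the lowest of 5 bins to -0.10 in the highest. A smooth surface in length and GC content held 46.5% of the variance of the log2 ratio. With it removed, 187 genes were 2-fold lower and 62 higher, of which 127 and 24 were among the genes called before. The part that length plays in each result below was not tested.

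**Figure D3:**
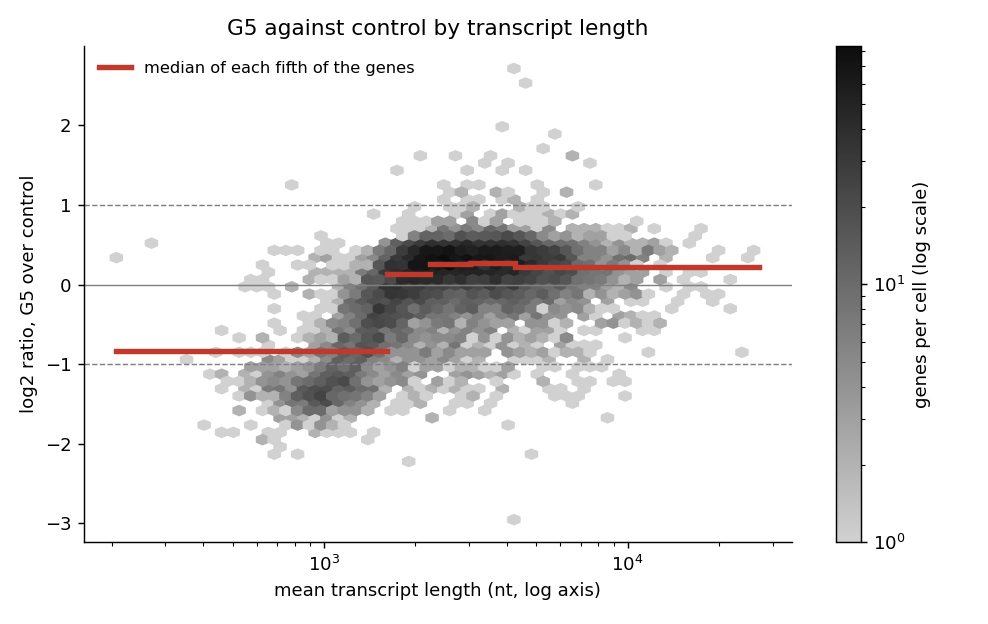
Log2 ratio of G5 over the control against mean transcript length (log axis) for 7737 genes with a length; shading gives the number of genes per cell, red bars the median of each of 5 equal length bins and dashed lines a 2-fold difference. The shortest bin lies at a median of -0.84, and the others lie between 0.13 and 0.27.

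The 12 lowest ratios among genes with a mean of at least 20 TPM lay between -1.95 and -1.72 on the log2 scale. They span several functions. PSMC3IP, which helps the recombinases of meiotic and double-strand-break repair, was at 82.0 TPM in the control and 20.8 TPM in G5, with 10.2 TPM in G3, 45.2 TPM in G11, 68.1 TPM in G12, 95.5 TPM in G13 and 14.3 TPM in G14. CKS2, a subunit that binds cyclin-dependent kinases, was at 169 and 43.8 TPM, and RBX1, the RING subunit of cullin ubiquitin ligases, at 62.5 and 17.5 TPM. APOE, a lipid carrier, was at 448 and 124 TPM. GPX4, which detoxifies lipid peroxides, was at 174 and 48.7 TPM. NUTF2, the import factor for Ran, was at 854 and 258 TPM, and FKBP1B, a prolyl isomerase, at 100.2 and 29.4 TPM. PTMS, TMSB10, RPS2, NDUFA13 and NME2 completed the 12. These 12 were chosen for their ratio to the control, which was the highest of the 7 libraries in 11, all but PSMC3IP. In the same 11 genes the other 5 G libraries were all below the control too. NME2 overlaps the annotated readthrough NME1-NME2 on the same strand, and the assignment of reads common to both is not given in the sources used here.

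With the length and GC surface removed, the log2 ratios of these 12 genes ran from -1.73 for NUTF2 to 0.12 for TMSB10. PSMC3IP (-1.59) and RBX1 (-1.31) also kept a value beyond 2-fold then. Against the median of the other 5 G libraries, PSMC3IP was at -1.10 and PTMS, a prothymosin-related acidic protein, at 1.17 in the other direction.

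The 12 highest ratios lay between 1.43 and 2.71, in genes with longer transcripts, 1753 to 6432 nt. TOPORS, a SUMO and ubiquitin ligase that binds topoisomerase I, was at 2.68 TPM in the control and 20.4 TPM in G5, with 11.7 TPM in G3, 22.9 TPM in G11, 21.7 TPM in G12, 28.1 TPM in G13 and 36.0 TPM in G14. The control was the lowest of the 7, with G3 next. TOP2A, the topoisomerase that untangles sister chromatids, was at 4.36 and 18.2 TPM, and SMC3, a subunit of cohesin, at 6.67 and 20.3 TPM. XRN2, the nuclear exonuclease of transcription termination, was at 18.8 and 53.3 TPM. The splicing factors CWC27 (19.1 and 61.1 TPM), SF3B2 (192 and 535 TPM) and SRRM1 (36.3 and 98.4 TPM) were also among the 12, as was KNOP1 (29.7 and 91.3 TPM). SEC63, a component of the translocon of the endoplasmic reticulum, was at 15.6 and 48.3 TPM. NAA35, a subunit of an N-terminal acetyltransferase, was at 12.5 and 38.5 TPM, and KRCC1 at 12.8 and 35.3 TPM. The 12 were chosen for their ratio to the control, which was the lowest of the 7 libraries for each. Against the median of the other 5 G libraries, G5 lay between -0.47 and 0.38.

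Gene groups were then compared by counts and medians, beside the 10.1% of all genes that were 2-fold lower and the 0.533% that were 2-fold higher. Of 68 cytosolic ribosomal protein genes, 46 were at least 2-fold lower in G5 (67.6%), and the median log2 ratio was -1.19. RPL36 had the lowest ratio, with 29.6 TPM in the control and 7.11 TPM in G5, and RPL4, at 38.0 and 41.1 TPM, was the only member above the control. Ribosomal protein genes, like POU5F1, NANOG and GAPDH, have near-identical pseudogenes, and how reads shared with them were assigned is not given in the sources used here. Of 67 nuclear-encoded subunits of the respiratory chain, 40 were 2-fold lower (59.7%), with a median of -1.12. COX6B1, a subunit of cytochrome c oxidase, was lowest at 15.6 and 3.97 TPM, and NDUFA5 of complex I highest at 670 and 934 TPM. Of 34 proteasome subunits 13 were 2-fold lower (38.2%), with a median of -0.43. PSMB3 of the catalytic core was at 196 and 69.0 TPM, and PSMD2 of the regulatory particle at 606 and 918 TPM.

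These 3 groups have short transcripts, with median lengths of 979, 991 and 1559 nt. With the length and GC surface removed their medians were -0.33, -0.11 and -0.17. Against the other 5 G libraries they were -0.21, -0.28 and -0.22. Against the same control, the median of the ribosomal list in G3 and G11 to G14 ranged from -1.35 in G14 to -0.75 in G3 and G13.

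**Figure D4:**
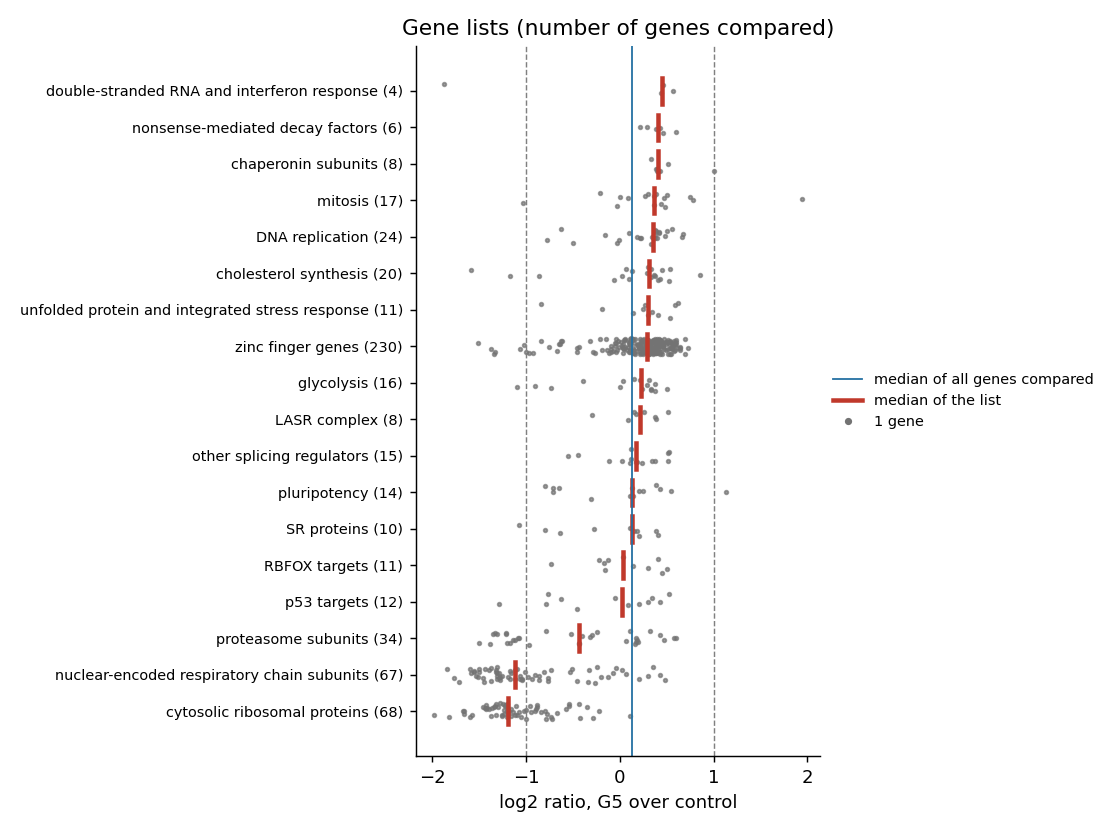
Log2 ratio of G5 over the control for every compared gene of the lists with at least 4 such genes; red bars are list medians, the blue line is the median of all genes and dashed lines mark 2-fold. Ribosomal, respiratory chain and proteasome genes lie to the left, and the remaining lists have medians between 0.02 and 0.45.

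Cell-cycle genes lay a little above the median of all genes. The 24 DNA replication genes had a median of 0.36 with none 2-fold away, from GINS2 (252 and 147 TPM), a helicase cofactor, to MCM3 (599 and 954 TPM). The 17 mitotic genes had a median of 0.37 with TOP2A higher and AURKB, the chromosomal passenger kinase, lower at 163 and 79.5 TPM. Against the other 5 G libraries that median was -0.0023. The 8 subunits of the cytosolic chaperonin were all above the control, with a median of 0.41, and CCT6A (299 and 601 TPM) was 2-fold higher.

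Cholesterol synthesis genes had a median log2 ratio of 0.32, glycolysis genes 0.23, genes of the unfolded protein and integrated stress response 0.30 and p53 targets 0.02. Of 20 cholesterol synthesis genes, SQLE, the squalene epoxidase, was highest (153 and 279 TPM), and PMVK (41.1 and 13.3 TPM) and EBP (382 and 170 TPM) were 2-fold lower. Of 16 glycolysis genes, GAPDH was 2-fold lower (3438 and 1606 TPM) and SLC2A1, a glucose transporter, highest (414 and 589 TPM). Of 11 stress response genes none was 2-fold away. The chaperone HSPA5 was at 3539 and 5304 TPM, PDIA4 was highest at 784 and 1206 TPM, and ATF4 was lowest at 80.2 and 44.6 TPM. Of 12 p53 targets only BAX, a pro-apoptotic pore former, was 2-fold lower (248 and 101 TPM). BAX has a transcript of 912 nt and was below the control in the other 5 G libraries too, at 72.9 to 163 TPM. XPC was highest (26.2 and 38.0 TPM), and CDKN1A, the cell-cycle inhibitor, was at 54.0 and 62.2 TPM.

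Of 13 sensors of double-stranded RNA and interferon-stimulated genes, 4 were compared. IFIT1 was at 17.4 TPM in the control and 26.1 TPM in G5, and EIF2AK2 (the kinase PKR) at 43.8 and 60.6 TPM. ISG15, a ubiquitin-like modifier with a short transcript of 637 nt, was lower at 10.3 and 2.44 TPM. The median of the 4 was 0.45 against the control and -0.17 against the other 5 G libraries.

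Of the splicing regulators listed, SRSF9 alone differed 2-fold. Of 10 SR proteins, SRSF9 was at 667 and 316 TPM and SRSF1 at 573 and 759 TPM. SRSF9 was also below the control in G11, G12, G13 and G14, at 283 to 434 TPM, and near it in G3 at 662 TPM. Against the median of the other 5 G libraries its log2 ratio was -0.38. For the LASR complex, a large assembly of splicing regulators to which RBFOX proteins bind, 8 gene IDs were compared, 2 of them for MATR3. Their median was 0.21, and it was 0.26 at a mean of at least 20 TPM, where the weaker MATR3 entry drops out. HNRNPM was highest (915 and 1308 TPM). Of 15 further regulators, KHDRBS1 was lowest (45.4 and 30.8 TPM) and RBM39 highest (220 and 317 TPM). Of 6 factors of nonsense-mediated decay all were above the control, from UPF3B (5.78 and 6.80 TPM) to SMG8 (16.0 and 24.5 TPM). The 230 compared zinc finger genes had 7 lower, none higher and a median of 0.29, from ZNF580 (24.2 and 8.13 TPM) to ZNF613 (23.0 and 38.4 TPM).

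Few genes had a level in G5 that lay far outside the range of all other libraries. G5 was the highest of 7 for 1021 genes and the lowest for 408. At least 1.5-fold beyond the nearest of the other 6 lay 1 of the 7878 genes (0.0127%). It was HYPK, a chaperone of the nascent-chain acetyltransferase, at 5.70 TPM in G5 and 15.2 TPM in the control, 10.4 TPM in G3, 10.8 TPM in G11, 11.7 TPM in G12, 12.2 TPM in G13 and 9.36 TPM in G14. HYPK lies on chromosome 15 at 43796142 to 43803043 and overlaps SERF2 on the same strand, so its reads depend on how overlapping genes were separated. The next lowest relative to the other 6 were ISG15, GADD45A (7.35 TPM in G5, at least 10.8 TPM elsewhere), BOLA1 and LSM3, between 1.35-fold and 1.44-fold below the nearest library.

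Farthest above the other 6 were XYLT2, a xylosyltransferase that starts proteoglycan chains, with 28.5 TPM in G5 and at most 21.0 TPM elsewhere, and ZNF549 with 10.5 and at most 7.63 TPM. SMC1A, the cohesin partner of SMC3, had 17.2 and at most 12.7 TPM, and C1orf198 had 96.1 and at most 73.3 TPM. These gaps were between 1.31-fold and 1.35-fold.

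Against the median of the other 5 G libraries, 398 genes were at least 2-fold higher in G5 and 5 at least 2-fold lower. Of the 398, 379 lay within 1.5-fold of the control, and their median GC content was 60.8%, against 47.9% over all genes. Their median log2 difference from the control was 0.08 in G5 and 0.60 in G3, and -0.93, -1.38, -2.35 and -1.48 in G11, G12, G13 and G14. MYH9 beside RBFOX2 was of this kind, with 40.2 TPM in G3 and 2.41 to 6.63 TPM in the last 4. The 5 lower genes were IGFBP2, NDUFA12, PSMC3IP, PPCS and FAAH2. IGFBP2, which binds insulin-like growth factors, was at 1475 TPM in G5 and 3823 TPM in the control, with 311 TPM in G3 and 2538 to 4701 TPM in the others.

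Isoform usage was compared next, since RBFOX2 is a splicing regulator. The distance between a gene's isoform shares in the libraries runs from 0, for identical shares, to 1, for no isoform in common. Every listed isoform has at least 1 control read, so a distance of 1 cannot occur here and isoforms seen only in G5 are not counted. Of the 386982 listed isoforms, 199566 had no G5 read, and these add to the distances. Over 6395 genes with at least 200 reads in both libraries its median was 0.0524, and 182 genes were at 0.25 or more (2.85%). RBFOX2 itself was at 0.286, rank 106, percentile 98.4, but at 0.228, below the threshold, with isoforms of at least 1 TPM on average only. Of the 182 genes, 104 (57.1%) had the isoform with the largest gain in G5 ending over 500 bases downstream of the one with the largest loss, against 1407 of all 6395 genes.

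The 8 largest distances were those of TRMT2B (0.557), ZNF320 (0.552), EPRS1 (0.549), FEZ2 (0.511), LRCH3 (0.471), TCF3 (0.457), GNL3L (0.445) and AGGF1 (0.444). In 5 of them, TRMT2B, ZNF320, LRCH3, TCF3 and GNL3L, the reads were spread over 128 to 279 listed isoforms. The isoform with the largest loss then had at most 7 reads in the control and at most 1 in G5, so the distance rests on many rare isoforms.

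In EPRS1, FEZ2 and AGGF1 a pair of isoforms made most of the difference. In EPRS1, the glutamyl-prolyl-tRNA synthetase, the full-length ENST00000366923.8 (chromosome 1, 219968599 to 220046533) held 21.5% of the reads in the control and 76.4% in G5. A short isoform ending 53769 bases upstream held 62.5% and 17.8%. In FEZ2, a kinesin adaptor, ENST00000405912.8 held 24.6% and 66.9%, and a short isoform 57.1% and 10.7%. In AGGF1, an angiogenic factor, ENST00000312916.12 held 23.4% and 66.8%, and a short isoform 72.5% and 30.1%. The full-length share was above the control in all other 5 G libraries too, at 46.7% to 88.2% in EPRS1, 55.5% to 66.8% in FEZ2 and 56.2% to 77.3% in AGGF1.

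With isoforms of at least 1 TPM on average only, CEP57, DKC1, EHMT1, ARSK and CALD1 joined these 3 among the 8 largest distances, which were chosen after the values were seen. In CEP57, a centrosomal protein, ENST00000325542.10 held 20.3% in the control and 50.7% in G5. In DKC1, which encodes the pseudouridine synthase dyskerin, ENST00000369550.10 held 15.2% and 53.7%, and ENST00000696577.1, with nearly the same ends, 71.9% and 36.4%. In CALD1, an actin-binding protein, ENST00000424922.5 held 19.6% and 38.4%. The control held the lowest share of these gained isoforms among the 7 libraries.

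**Figure D5:**
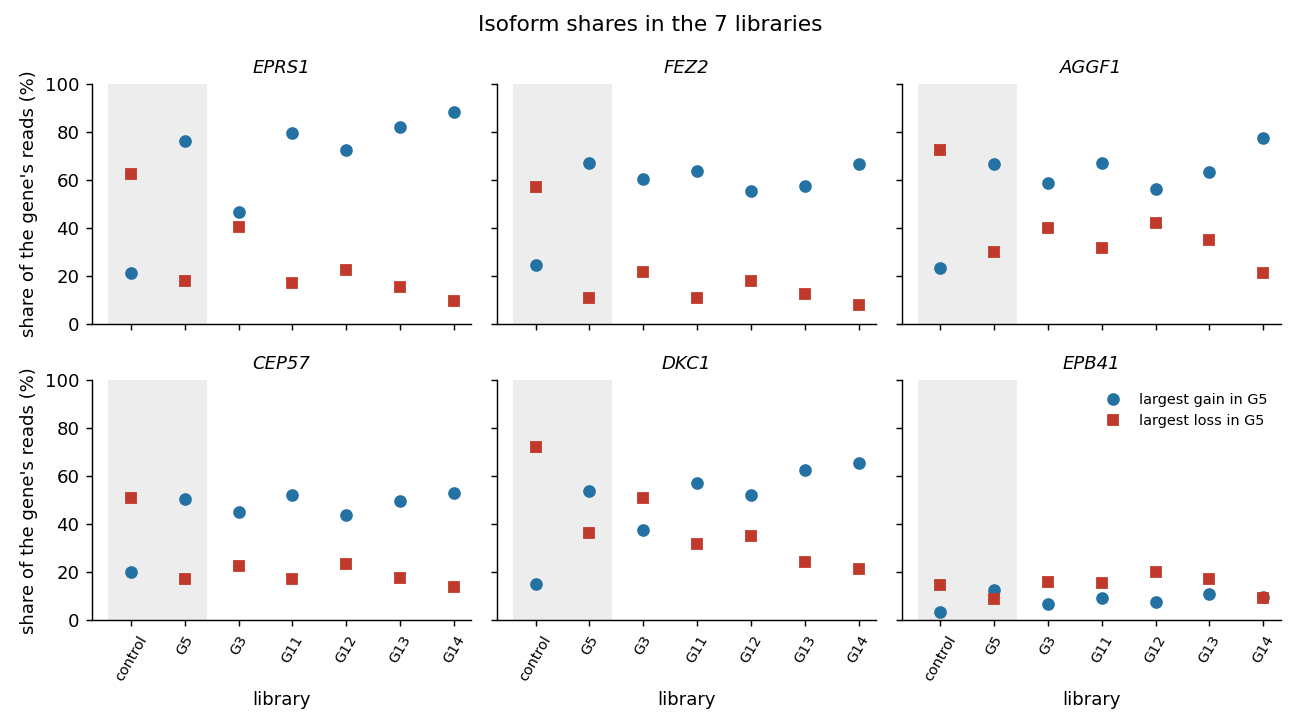
Share of a gene's reads (percent) held by the isoform with the largest gain (circles) and the largest loss (squares) in G5, in each of the 7 libraries, with the control and G5 shaded. In EPRS1, FEZ2, AGGF1, CEP57 and DKC1 both shares of the control lie outside the range of the 6 G libraries. In EPRS1 and DKC1, G3 lies between the control and the remaining G libraries. In the RBFOX target EPB41 the shares are low throughout.

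Genes whose splicing RBFOX proteins are known to control were examined as a list of 16. Of these, 11 were compared in level, with a median log2 ratio of 0.04 and none 2-fold away, from ATP5F1C (950 and 572 TPM) to ENAH (5.96 and 8.66 TPM). Enough reads for isoform usage were present in 7, with a median distance of 0.119 beside 0.0524 over all genes, and 1 of the 7 was at 0.25 or more beside 2.85% of all genes. These medians were not matched for read number or number of listed isoforms. At 1000 reads, 2 targets were left, with a median of 0.0395 beside 0.0319 over all genes. With isoforms of at least 1 TPM on average, the median was 0.0566 in 6 targets beside 0.0159. EPB41, the membrane-skeleton protein 4.1R, had the largest distance, 0.357 over 156 listed isoforms. A hashed isoform reaching the distal end of EPB41 (chromosome 1, 28914567 to 29120046) held 3.51% of its reads in the control, 12.8% in G5 and 6.95% to 11.1% in the other G libraries.

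In CLSTN1, a calsyntenin that links cargo to kinesin, a hashed isoform held 57.3% in the control and 76.1% in G5, and ENST00000361311.4 held 22.5% and 6.38%. The first was at 67.1% to 77.9% in the other G libraries. In PICALM, a clathrin assembly protein, ENST00000532317.5 held 26.2% and 21.0%, with 22.2% to 29.3% elsewhere. In ECT2, an exchange factor needed for cytokinesis, ENST00000232458.9 held 10.1% and 19.1%, with 14.6% to 31.0% elsewhere. In INF2, a formin, ENST00000398337.8 held 82.7% and 87.4%. In MAP3K7, the kinase TAK1, ENST00000369332.7 held 70.4% and 73.6%. In ATP5F1C, a subunit of ATP synthase, ENST00000356708.12 held 96.4% and 97.3%, and ENST00000335698.4 held 1.35% and 0.577%, where 0.545% to 0.971% was seen elsewhere. Among the shares given for these 7 genes, G5 lay outside the range of the other 6 libraries in EPB41, PICALM, MAP3K7 and for ENST00000356708.12 of ATP5F1C. In each of these the nearest library lay inside the Wilson interval of G5.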

How the data were processed

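Long-read polyA RNA sequencing gave 1 library per group. The authors deposited one table of read counts and TPM values per isoform. The deposited counts are whole reads, and the deposited TPM equals reads scaled to the library total. Alignment tools listed in the submitters' processing notes include minimap2 2.17, with GRCh38 (hg38) as build. The counter, annotation and filters are not given in the sources used here. Every listed isoform has at least 1 control read, and the listed isoforms hold 98.2% of G5 reads.

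Missing values were set to 0, and isoforms were summed by Ensembl gene ID. Genes with a mean of at least 5 TPM were compared on log2(TPM + 0.5), with 2-fold as threshold and no test. Transcript lengths, GC content and exons came from GENCODE 29. Named were RBFOX2 isoforms with at least 10 reads, the 12 highest and lowest ratios at a mean of at least 20 TPM, the 5 genes farthest beyond the other 6 libraries on each side, the extremes and 2-fold members of each list (counts only for long lists), the 8 largest usage distances, and the RBFOX targets and chromosome 22 neighbours that passed. Members and lists were chosen with earlier results of these data known. Scripts were tested on simulated data and used Python 3.11.15, pandas 2.3.3, NumPy 2.4.6, SciPy 1.17.1 and matplotlib 3.10.9. A floor of 3 reads is 0.179 TPM in the control and 0.118 TPM in G5. Some items that these rules would name are not reported here.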

Additional observations from a re-analysis of the deposited data

How the results depend on the processing

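No paired analysis was possible because each group has 1 library. The low distal RBFOX2 level kept its direction in every setting run: 18.8% with reference IDs only and 23.4% against the median of the other 5 G libraries. The proximal level was 125% with isoforms of at least 1 TPM and 131% against the other 5. The difference in proximal share was 11.6 points with reference IDs and 13.4 against the other 5, beside 20.8. The RBFOX2 total was 98.4% with isoforms of at least 1 TPM, and it reversed to 109% with reference IDs and 117% against the other 5; the cause was not tested.

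Genes 2-fold lower numbered 524 at a mean of at least 20 TPM, 5 against the other 5 G libraries and 187 with the length and GC surface removed, beside 799. At 1.5-fold 1355 were lower and 291 higher, and at 3-fold 78 and 9. Against the other 5, 398 were higher, beside 42. Lower genes were 799 of 841 calls at 2-fold, but their share of calls was 1.24% against the other 5 and 75.1% with the surface removed. Lists with a median at least 2-fold away were 2, but 1 at 20 TPM, 1 against the other 5 (fibroblast markers, 1.42) and 0 with the surface removed. Of 20 list medians, 6 changed sign in some setting (pluripotency, fibroblast, double-stranded RNA response, RBFOX targets, other splicing regulators and mitosis).

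Genes in which G5 lay beyond the other 6 libraries were 19 at a looser fold, 0 at 2-fold and 0 at 20 TPM, beside 1. They were 3 with the control left out and 20 with G3 left out, both chosen after seeing the data. Usage distances of at least 0.25 numbered 373 at 100 reads, 38 at 1000 reads, 50 with isoforms of at least 1 TPM and 10 with reference IDs, beside 182. Thresholds of 0.15 and 0.4 gave 786 and 15. The RBFOX targets among them were 0 at 1000 reads and 0 with reference IDs. Chosen after seeing the data, gaps of 2 and 10 points gave 62 and 0 start sites and 346 and 1 isoforms. With 1 library a side, no setting supplies replicate error.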

Other observations

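Shares in G5 that lay over 5 percentage points beyond all other 6 libraries were scanned after the values were seen, and the genes named here were chosen from that scan. Among 286843 isoforms of 5743 genes, 25 isoforms of 22 genes did so (0.00872%). The widest gap was in DICER1, the nuclease that matures microRNAs. Its ENST00000343455.8 (chromosome 14, 95089220 to 95157538) held 43.0% of reads in G5 and 24.6% to 31.4% in the others, on 147 reads in G5 and 90 in the control. In DIAPH1, a formin that nucleates actin, an isoform without a reference ID held 36.9% in G5 and 13.1% to 29.2% elsewhere.

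In CFLAR, a regulator of caspase-8, ENST00000341222.10 held 45.7% in G5 against 54.0% to 65.2% elsewhere. ENST00000309955.8, whose span reaches further downstream, held 28.7% against 14.9% to 21.8%. In NFKBIB, an inhibitor of NF-kappa-B, ENST00000313582.6 held 45.5% against 52.4% to 72.9%, and ENST00000572515.5, with nearly the same ends, 46.1% against 18.8% to 39.2%. PNKD, CENPN and POLR2G each had an isoform with a lower share in G5 than elsewhere: ENST00000248451.7 at 60.5%, ENST00000299572.9 at 31.9% and ENST00000301788.12 at 57.4%.

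Besides RBFOX2, 3 genes had start sites beyond the other 6 libraries by over 5 points. In OSGEPL1, a mitochondrial tRNA-modifying enzyme, the start at 189763188 on chromosome 2 held 49.7% in G5 and 40.6% to 43.9% elsewhere, and the neighbouring start at 189762730 to 189762806 held 50.1% against 55.1% to 58.9%. In COCH, which encodes cochlin, the start at 30874505 to 30875055 on chromosome 14 held 91.1% against 79.1% to 85.8%. In PRICKLE1, a planar cell polarity gene, the start at 42484209 to 42484403 on chromosome 12 held 62.2% against 40.6% to 57.2%. These are values of 1 library, and none was tested.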
